A study of Mus musculus with 6 samples.

Results

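The subunit genes of respiratory complex I were taken as the genes of the deposited table whose names stand on a list of 43 known subunits, 36 nuclear Nduf genes and the 7 ND genes of mitochondrial DNA, out of 28879 genes. The vitrified–warmed group was 1 pool of mouse blastocysts that had been vitrified with the Cryotech Vitrification Kit, warmed and put back in human tubal fluid, and the fresh group was 1 pool of blastocysts that had not been frozen. Both groups came from superovulated females, 6 to 8 weeks old, and the embryos had been grown for 3 days in human tubal fluid. The sample labels give the strain as C57BL/6JNarl, whereas the series text names B6CBF1 mice. Each pool was divided into 3 aliquots and each aliquot gave 1 RNA-Seq library, so the p-values measure the spread between aliquots, and the treatment and the pool cannot be told apart. In such bulk samples, fewer cells of a type and less RNA per cell cannot be told apart either.

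Complex I takes electrons from NADH and passes them to ubiquinone, and it couples this step to the pumping of protons out of the mitochondrial matrix. It is built in modules: the N module oxidises NADH, the Q module carries the electrons along iron-sulfur clusters to ubiquinone, and the proximal and distal parts of the membrane arm pump protons. Its core pumping subunits are encoded by mitochondrial DNA and the rest by the nucleus, so that the enzyme needs transcripts of both genomes, and the blastocyst is a stage at which oxygen uptake of the mouse embryo is high.

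The libraries held 9093411 to 11275436 exon fragments in the vitrified–warmed group and 10788884 to 11843562 in the fresh group. Exon fragments were 54.4% to 56.6% of the library total behind the FPKM values in the vitrified–warmed libraries and 63.2% to 63.6% in the fresh libraries. At least 1 fragment was found for 17563 to 17764 genes against 15558 to 20086 genes, and fresh replicate 1 held the 20086. Summed, markers of the blastocyst lineages were present in both groups: the 7 trophectoderm markers summed to 1655 to 1661 CPM (exon fragments scaled to library size with TMM normalization) against 1425 to 1495 CPM, the 7 epiblast markers to 664 to 684 against 639 to 669 CPM, and the 7 primitive endoderm markers to 691 to 711 against 622 to 632 CPM. Within each sum members differed: 5 trophectoderm markers were called higher and 1 (Cdx2) lower, and 4 epiblast markers higher and 1 (Gdf3) lower. Of all genes tested 31.6% were called higher and 32.8% lower (edgeR, adjusted p under 0.05). Of the 5 primitive endoderm markers tested, 1 (Gata6) was higher and 1 (Sox17) lower. Sox7 and Foxa2 had at most 14 and 12 fragments in any library and were not tested. The largest primitive endoderm levels were those of Dab2 (389 against 390 CPM) and Gata6 (240 against 168 CPM), in the means. Of the other cell types, 3 of 6 blood and immune markers had enough fragments to be tested and all 3 were higher. Summed, the blood and immune markers had 14.4 to 19.3 CPM in the vitrified–warmed libraries and 3.43 to 4.87 CPM in the fresh libraries. Hba-a1 had 5.75 against 0.648 CPM and Cd68 4.60 against 0.952 CPM in the means. A gene this low in 1 group can pass the filter on low counts through the other. The direction of its call then depends on the filter. The blood and immune markers not tested had at most 8 fragments in any library. The 5 cumulus markers summed to 0.622 to 0.840 CPM against 0.354 to 3.59 CPM, of 3 sperm markers 2 were at 0 in both groups, and the 4 oviduct markers were tested only for Epcam, which the embryo also expresses. Of 4 oocyte markers 3 were tested, and the list summed to 5.32 to 7.72 CPM against 6.82 to 9.01 CPM. Gdf9 was lower, at 1.61 against 5.20 CPM in the means and at most 64 fragments in any library. Zp3 and Bmp15 did not pass the test. The part of these levels in the results for complex I was not tested.

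All 43 subunit genes passed the filter on low counts and were tested among 12774 genes with edgeR's quasi-likelihood test. In vitrified–warmed blastocysts 26 of them were higher and 5 lower at an adjusted p under 0.05, and 12 did not pass the test. Over all genes tested, 31.6% were higher and 32.8% lower. Of the 36 nuclear genes 21 were higher, which is 58.3%, and 5 were lower, which is 13.9%, and their median log2 fold change was 0.28, beside -0.001 over all genes. Of the 7 ND genes 5 were higher and none was lower, with a median of 0.15. At a fold change of at least 1.5, 8 nuclear genes were higher and 2 lower, and no ND gene reached it, where 18.5% and 17.7% of all genes did. At the study's thresholds (an average over 0.5 FPKM, a 1.5-fold change and a p under 0.05 without adjustment), set here on edgeR's own fold changes and p-values and not on FPKM calibrated to housekeeping genes, 8 nuclear genes were higher and 2 lower, where 9.17% and 11.6% of all genes were called. On log2(FPKM + 0.5) limma called 16 nuclear genes higher and 8 lower (median 0.10) and 2 ND genes higher and 2 lower (median -0.020), where 20.7% and 43.4% of all genes were called and their median was -0.13. The 3 vitrified–warmed libraries lay above all 3 fresh libraries for 28 of the 43 genes and below them for 5, where 33.5% and 35.1% of all genes did so.

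**Figure D1:**
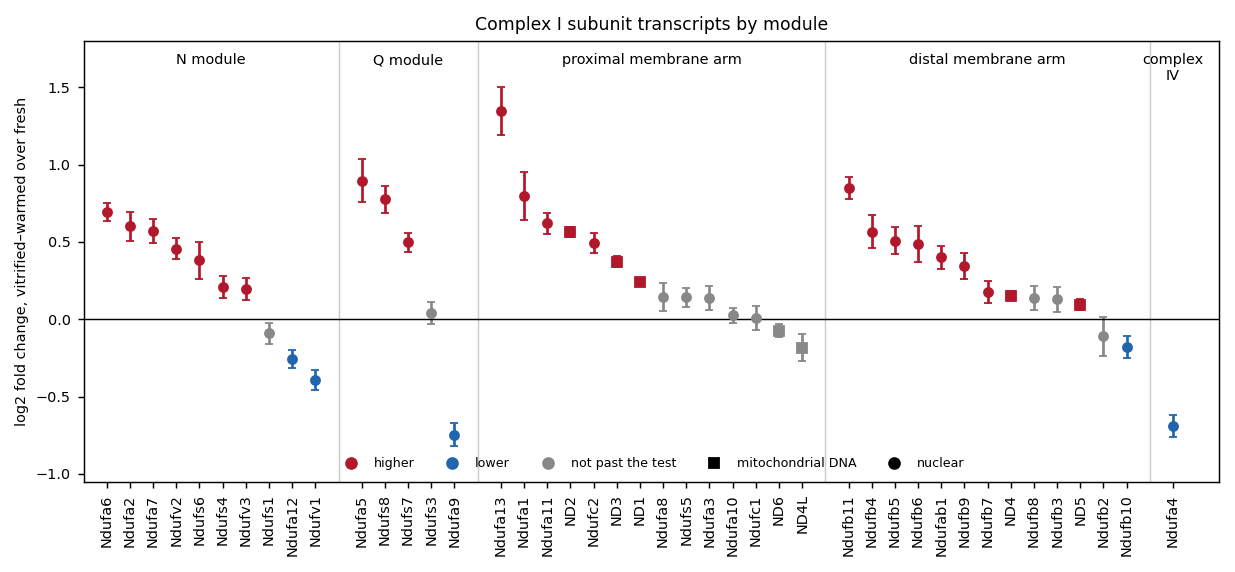
Log2 fold change, vitrified–warmed over fresh, of the 43 subunit genes (vertical axis), ordered within each module by size, with bars of 1 standard error from edgeR. Squares are ND genes and circles nuclear genes, red and blue mark genes higher and lower at an adjusted p under 0.05. Values ran between -0.75 for Ndufa9 and 1.34 for Ndufa13. Of genes above 0 here, ND4, ND5, Ndufs3, Ndufa3, Ndufa8, Ndufa10, Ndufc1, Ndufs5, Ndufb3 and Ndufb8 lay below 0 in limma on FPKM values, and Ndufs3, Ndufa3, Ndufa8, Ndufa10, Ndufc1, Ndufs5, Ndufb3 and Ndufb7 did so after a correction for exon length, which also put Ndufs1 just above 0.

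Complex I transcripts are short, and short transcripts as a whole differed between the groups. The median exon length was 666 bases for the nuclear subunit genes and 3674 bases for all genes tested. Among the 742 genes tested with under 1000 bases of exon, 49.1% were higher and 16.6% lower, with a median log2 fold change of 0.23, and among the 12032 longer genes 30.5% were higher and 33.8% lower. Of the 23 nuclear subunit genes under 1000 bases 13 were higher and 3 lower, and of the 13 longer ones 8 were higher and 2 lower. Short subunit genes were thus called higher at 56.5%, beside 49.1% of all short genes, and long ones at 61.5%. With a fit that corrects each library for exon length, 18 nuclear genes were higher and 8 lower, with a median of 0.22. Of all genes 31.8% and 32.0% were then called. There 9 of the 23 short nuclear genes were higher and 6 lower (median 0.12), beside 233 and 228 of all 742. Of the 13 longer nuclear genes 9 were higher and 2 lower (median 0.23), beside 3823 and 3859 of all 12032. The Spearman correlation of log2 fold change with exon length over the 36 nuclear genes, which share the same 6 libraries, was 0.06 before the correction and 0.32 after it. Whether length accounts for the rise of single genes was not tested.

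**Figure D2:**
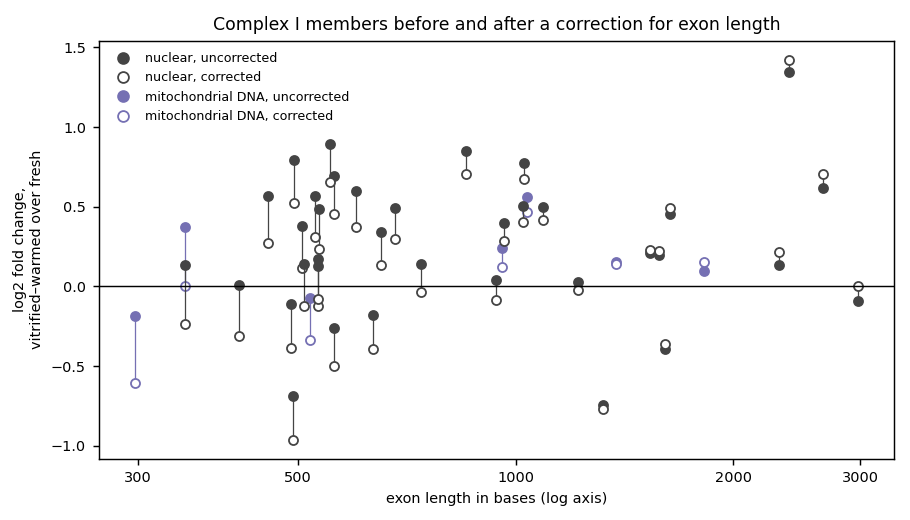
Log2 fold change, vitrified–warmed over fresh (vertical axis), of each subunit gene against its exon length in bases (log axis), before (filled) and after (open) a correction for exon length. Genes under 1000 bases moved down on correction, among them ND4L with -0.18 before and -0.61 after it, while Ndufa13 moved up, with 1.34 before and 1.42 after it.

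Of the 10 listed genes of the N module, which takes the electrons from NADH, 7 were higher and 2 lower. Over all genes tested these shares were 31.6% and 32.8%. The module had a median log2 fold change of 0.29. Its core subunits went in different directions. Ndufv1 (chromosome 19, 4007499 to 4012755 of GRCm38), the subunit that binds FMN and receives the electrons of NADH, had 43.5, 46.5 and 46.9 CPM in the vitrified–warmed libraries, against 58.9, 61.6 and 59.3 CPM in the fresh libraries. It was lower in all 3, with a log2 fold change of -0.39 ± 0.06 (SE, edgeR adjusted p = 4.87e-05). Ndufv2 (chromosome 17, 66078795 to 66101559), the iron-sulfur protein that sits against Ndufv1, had 84.4, 72.6 and 72.2 CPM in vitrified–warmed libraries and 54.9, 56.7 and 55.6 CPM in fresh libraries. The groups did not overlap, and the log2 fold change was 0.46 ± 0.07 (SE, edgeR adjusted p = 2.08e-05). Ndufs1 (chromosome 1, 63143592 to 63176822), the largest subunit, which holds iron-sulfur clusters of the N module, had 94.7, 85.2 and 105 CPM against 96.4, 107 and 101 CPM in fresh libraries. These values overlapped, with a log2 fold change of -0.09 and an adjusted p of 0.249 from edgeR, and without vitrified–warmed replicate 3 it was -0.15 with an adjusted p of 0.0413. On log2(FPKM + 0.5) limma gave Ndufs1 -0.26 (adjusted p = 0.0272), and with the exon length correction edgeR gave 0.0004 (adjusted p = 0.995). For Ndufv2 limma gave 0.27 (adjusted p = 0.00926). The span of Ndufs1 overlaps that of Ino80dos, on the opposite strand, over 14704 bases. Ino80dos had 364 to 493 fragments per library and a log2 fold change of -0.20. The part of this overlap in the counts of Ndufs1 was not tested.

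Accessory subunits of the N module were mostly higher. The largest rise was that of Ndufa6 (chromosome 15, 82350139 to 82354291), a LYR-motif protein that anchors a mitochondrial acyl carrier protein to the complex. It had 85.5, 83.1 and 79.8 CPM in vitrified–warmed libraries and 50.5, 53.6 and 49.4 CPM in fresh libraries, a log2 fold change of 0.69 ± 0.06 (SE, edgeR adjusted p = 1.02e-07). With 82.6 ± 2.66 FPKM against 57.5 ± 2.17 FPKM (SD, n = 3 each), Ndufa6 was the nuclear member with the highest level per length in vitrified–warmed blastocysts. Ndufa2 (chromosome 18, 36742332 to 36744587), which has a thioredoxin-like fold, had 28.8, 28.3 and 32.4 CPM in vitrified–warmed libraries, against 18.2, 19.3 and 21.6 CPM in fresh libraries. It too was higher in all 3 libraries, with a log2 fold change of 0.60 ± 0.10 (SE, edgeR adjusted p = 5.35e-05). Ndufa7, Ndufs6, Ndufs4 and Ndufv3 were higher with log2 fold changes of 0.57, 0.38, 0.21 and 0.20, and Ndufa12 was lower with -0.26. The smaller of these rises depended on single libraries. Ndufv3 lost its call without vitrified–warmed replicate 1 (adjusted p = 0.0981), fresh replicate 1 (0.0761) or fresh replicate 3 (0.111), Ndufs4 without the same libraries (0.0543, 0.072 and 0.0643), and Ndufs6 without fresh replicate 1 (0.056), all from edgeR. With the correction for exon length Ndufa6, Ndufa2 and Ndufa7 had smaller rises of 0.45, 0.37 and 0.31, Ndufs6 had 0.12 and was no longer called (adjusted p = 0.415 in edgeR), and Ndufa12 had a larger fall, -0.50 (adjusted p = 2.03e-06). On log2(FPKM + 0.5) limma did not call Ndufv3 (0.02), Ndufs4 (0.04) or Ndufs6 (0.21), and gave Ndufa12 -0.43.

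The Q module passes electrons to ubiquinone, and 3 of its 5 listed genes were higher and 1 lower, beside 31.6% and 32.8% of all genes. It had the highest module median, a log2 fold change of 0.50. Both members that hold its iron-sulfur clusters were higher. Ndufs8 (chromosome 19, 3908863 to 3912774) had 58.3, 50.1 and 64.4 CPM in vitrified–warmed libraries and 34.0, 31.7 and 35.6 CPM in fresh libraries. This is a log2 fold change of 0.77 ± 0.09 (SE, edgeR adjusted p = 2.76e-06). Ndufs7 (chromosome 10, 80249121 to 80256793), which holds the last cluster before ubiquinone, had 82.9, 77.9 and 80.8 CPM against 52.9, 61.6 and 56.7 CPM in fresh libraries. Its groups did not overlap either, at a log2 fold change of 0.50 ± 0.06 (SE, edgeR adjusted p = 5.31e-06). Ndufs3 (chromosome 2, 90894636 to 90904721), a core subunit without a cluster that joins early in assembly, had 55.2, 49.1 and 55.5 CPM in vitrified–warmed and 49.7, 55.1 and 51.1 CPM in fresh libraries. The values of Ndufs3 overlapped, with a log2 fold change of 0.04 and an adjusted p of 0.634 from edgeR, and it was -0.08 with the exon length correction and -0.13 in limma on log2(FPKM + 0.5). That fit gave Ndufs7 0.32.

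The accessory subunits of the Q module differed in opposite directions. Ndufa5 (chromosome 6, 24518662 to 24527687) had 24.3, 26.3 and 23.9 CPM in vitrified–warmed libraries, against 10.7, 17.1 and 12.2 CPM in fresh libraries, of which fresh replicate 2 was the highest. It was higher by a log2 fold change of 0.90 ± 0.14 (SE, edgeR adjusted p = 7.23e-05). Ndufa9 (chromosome 6, 126821863 to 126849144), a dehydrogenase-like protein that binds NADPH next to the ubiquinone site, had 29.1, 29.6 and 32.1 CPM in vitrified–warmed libraries and 49.3, 48.6 and 54.5 CPM in fresh libraries. This was the largest fall among the 43 genes, a log2 fold change of -0.75 ± 0.08 (SE, edgeR adjusted p = 6.44e-07), and with the exon length correction it was -0.77.

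In the proximal membrane arm, next to the Q module, 4 of 9 nuclear genes were higher and none lower. Over all genes tested the shares were 31.6% and 32.8%. The median log2 fold change of the 9 genes was 0.14, and it was -0.02 with the correction for exon length and -0.03 on FPKM values. The largest rise among the 43 genes was that of Ndufa13 (chromosome 8, 69887788 to 69902558), also known as GRIM-19, which spans the inner membrane and was first described as a cell death regulator. It had 11.5, 12.4 and 10.7 CPM in vitrified–warmed libraries and 4.14, 4.34 and 5.05 CPM in fresh libraries, a log2 fold change of 1.34 ± 0.16 (SE, edgeR adjusted p = 2.43e-06). Per length it was the lowest of the nuclear genes, at 2.69 ± 0.17 FPKM against 1.19 ± 0.12 FPKM (SD, n = 3 each). The table gives Ndufa13 16 exons and 2388 exon bases and lets it run 6392 bases past its downstream end in GENCODE M21, where it has 1251 exon bases, and 344 bases of its span overlap Tssk6 on the opposite strand, which had at most 17 fragments in any library.

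Ndufa1, Ndufa11 and Ndufc2 were the other nuclear genes higher in the proximal arm. Ndufa1 (chromosome X, 37187588 to 37191238), a small membrane protein needed for assembly, had 8.77, 11.2 and 11.5 CPM in vitrified–warmed libraries and 6.16, 5.84 and 6.08 CPM in fresh libraries. The groups of this weakly expressed gene did not overlap, with a log2 fold change of 0.79 ± 0.16 (SE, edgeR adjusted p = 3.27e-04). Ndufa11 (chromosome 17, 56717762 to 56724248), a membrane protein that helps hold both parts of the arm together, had 59.8, 60.4 and 66.7 CPM against 38.9, 40.4 and 42.5 CPM in fresh libraries. It was higher in every vitrified–warmed library, at a log2 fold change of 0.62 ± 0.07 (SE, edgeR adjusted p = 1.36e-06). The gene extends 2107 bases further in the table than in GENCODE M21. Ndufc2 had a log2 fold change of 0.49. With the exon length correction Ndufa1 had 0.53 and Ndufc2 0.29, both still called. Ndufa3, Ndufa8, Ndufs5, Ndufa10 and Ndufc1 did not pass the test, with log2 fold changes between 0.01 and 0.14, and all 5 lay below 0 on log2(FPKM + 0.5) and with the exon length correction. With the exon length correction Ndufa3 (-0.24, adjusted p = 0.0126) and Ndufc1 (-0.31, adjusted p = 0.0025) were called lower in edgeR. Without vitrified–warmed replicate 2, Ndufa3 (adjusted p = 0.0472) and Ndufs5 (0.0495) were called higher in edgeR, and Ndufs5 also without vitrified–warmed replicate 3 (0.0478) or fresh replicate 3 (0.0405).

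In the distal membrane arm, 7 of 11 nuclear genes were higher and 1 lower, beside 31.6% and 32.8% of all genes tested. The 11 genes had a median log2 fold change of 0.34. Ndufb11 (chromosome X, 20615326 to 20617564), a single-span membrane protein, had 52.7, 56.8 and 55.4 CPM in vitrified–warmed libraries and 29.1, 31.8 and 30.7 CPM in fresh libraries. This was the largest rise of the arm, a log2 fold change of 0.85 ± 0.07 (SE, edgeR adjusted p = 9.11e-08). Its span overlaps 62 bases of Rbm10 on the opposite strand, which was lower with a log2 fold change of -0.89, and whether counting used the strand is not given in the sources used here. Both X-linked members, Ndufa1 and Ndufb11, were higher, as were 37.4% of the 441 genes tested on chromosome X, while 30.8% of those were lower. Ndufb10 (chromosome 17, 24722067 to 24724388), which faces the intermembrane space, had 34.2, 33.8 and 35.4 CPM in vitrified–warmed libraries, against 37.1, 40.9 and 39.2 CPM in fresh libraries. The groups did not overlap, with a log2 fold change of -0.18 ± 0.07 (SE, edgeR adjusted p = 0.0403).

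The call of Ndufb10 was lost without any 1 of vitrified–warmed replicates 1, 2 and 3 (adjusted p = 0.106, 0.0598 and 0.0628) and of fresh replicates 2 and 3 (0.159 and 0.0905), in edgeR. The fall was larger with the exon length correction, at -0.39 (adjusted p = 1.55e-04 in edgeR), and in limma on log2(FPKM + 0.5), at -0.35 (adjusted p = 5.80e-04). Ndufb4, Ndufb5, Ndufb6, Ndufb9, Ndufb7 and Ndufab1, the acyl carrier protein, were higher with log2 fold changes of 0.56, 0.51, 0.49, 0.34, 0.17 and 0.40, and Ndufb2, Ndufb3 and Ndufb8 did not pass the test. Ndufb7 lost its call in edgeR without vitrified–warmed replicate 1 (adjusted p = 0.058) or 2 (0.0502) and without fresh replicate 1 (0.152) or 2 (0.0711). Without vitrified–warmed replicate 2, Ndufb8 was called higher (log2 fold change 0.19, adjusted p = 0.0293 in edgeR). With the exon length correction Ndufb6 (0.24, adjusted p = 0.0808) and Ndufb9 (0.13, adjusted p = 0.163) were no longer called in edgeR, Ndufb4 had 0.27, Ndufb3 -0.12 and Ndufb7 -0.08, Ndufb2 was called lower at -0.39 and Ndufb8 higher at 0.21. On log2(FPKM + 0.5) limma gave Ndufb5 0.32, Ndufb6 0.31, Ndufab1 0.22, Ndufb9 0.16 and Ndufb7 0.01, the last 2 not called, and Ndufb3 and Ndufb8 both -0.04.

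Ndufa4 (chromosome 6, 11900373 to 11907446) carries a complex I name but is now placed in cytochrome c oxidase, so it was kept apart from the modules. It had 43.8, 41.5 and 48.0 CPM in vitrified–warmed libraries and 66.5, 70.6 and 78.2 CPM in fresh libraries. Its groups did not overlap, with a log2 fold change of -0.69 ± 0.07 (SE, edgeR adjusted p = 1.11e-06). Per length Ndufa4 was the highest nuclear member in fresh blastocysts, at 50.5 ± 4.32 FPKM in the vitrified–warmed and 91.7 ± 7.09 FPKM in the fresh group (SD, n = 3 each). Without it, 21 of 35 nuclear subunit genes were higher and 4 lower, with a median log2 fold change of 0.34. By kind, 3 of the 6 core nuclear genes were higher and 1 lower (median 0.25). Of the 29 accessory genes 18 were higher and 3 lower (median 0.34). Both stand beside 31.6% higher and 32.8% lower over all genes tested.

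**Figure D3:**
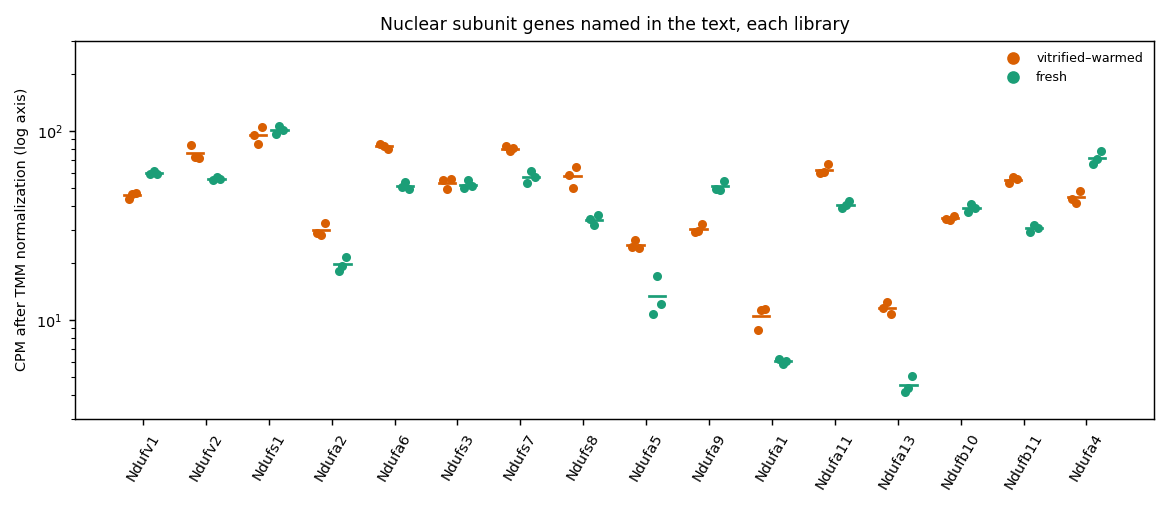
CPM after TMM normalization (log axis) in each library of the nuclear subunit genes described one by one, with vitrified–warmed libraries (orange) left of fresh libraries (green) and a line at each group mean. Ndufv1, Ndufa9, Ndufb10 and Ndufa4 lay lower in all 3 vitrified–warmed libraries, Ndufs1 and Ndufs3 overlapped, and the other 10 genes lay higher.

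The ND genes are far more abundant than the nuclear ones and are read from the same mitochondrial genome. They took 6.45%, 6.25% and 6.47% of exon fragments in vitrified–warmed libraries, against 5.14%, 5.22% and 5.25% in fresh libraries, and the 36 nuclear genes together 0.167% ± 0.004 against 0.143% ± 0.003 (SD, n = 3 each). Both shares were higher in every vitrified–warmed library. ND fragments outnumbered those of the nuclear genes 38.1, 38.5 and 38.2 times in vitrified–warmed libraries and 36.6, 35.9 and 36.5 times in fresh libraries. This ratio of summed fragments lay higher in the vitrified–warmed group, by 1.05-fold in the means. ND2 alone had 18553 against 12562 CPM, within an ND sum of 63676 against 52447 CPM (means). By gene the order was the other way, with a median log2 fold change of 0.28 for nuclear and 0.15 for ND genes. In relation to the other proteins of mitochondrial DNA, the ratio of ND fragments was 1.37, 1.38 and 1.35 in vitrified–warmed libraries and 1.19 in each fresh library. No test was run on these ratios.

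ND2 (mitochondrial DNA 3914 to 4951), an antiporter-like subunit of the proton pump, differed most among the ND genes. It had 18869.5, 17904 and 18885 CPM in vitrified–warmed libraries and 12238, 12686 and 12763 CPM in fresh libraries, a log2 fold change of 0.56 ± 0.03 (SE, edgeR adjusted p = 1.84e-09). ND1 (2751 to 3707), which lines the path of ubiquinone into the membrane arm, had 18804, 18259.7 and 18882 CPM in vitrified–warmed libraries, against 15357, 16024 and 15972 CPM in fresh libraries. The groups did not overlap, with a log2 fold change of 0.24 ± 0.03 (SE, edgeR adjusted p = 3.32e-06), and of 0.12 with the exon length correction. ND3 (9459 to 9806), whose matrix loop lies at the ubiquinone site, had 1372, 1287 and 1327 CPM against 1020.4, 1029 and 1029 CPM in fresh libraries. Its log2 fold change was 0.37 ± 0.03 (SE, edgeR adjusted p = 1.73e-07), and with the correction for exon length it was 0.002 (adjusted p = 0.966), and on log2(FPKM + 0.5) limma gave 0.20.

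The pumps of the distal arm, ND4 and ND5, were higher by less. ND4 (10167 to 11544) had 14208, 13639 and 14429 CPM in vitrified–warmed libraries and 12366, 12813 and 12875 CPM in fresh libraries. The groups did not overlap, at a log2 fold change of 0.15 ± 0.03 (SE, edgeR adjusted p = 3.95e-04). ND5 (11742 to 13565) had 10879, 10323 and 10961 CPM against 9684, 10179 and 10247 CPM in fresh libraries, and here the lowest vitrified–warmed library stood just above the highest fresh one. It had a log2 fold change of 0.10 ± 0.03 (SE, edgeR adjusted p = 0.0174), and without fresh replicate 1 it was 0.07 (adjusted p = 0.0684). On FPKM values the groups overlapped for ND4 and ND5. Their limma estimates on log2(FPKM + 0.5) turned round, to -0.02 and -0.08, where the median over all genes was -0.13. There ND1 at 0.07 (adjusted p = 0.0678 in limma) was not called.

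ND6 (13552 to 14070), the only ND gene read from the light strand, and ND4L (9877 to 10173), both small membrane subunits next to ND3, did not pass the test. ND6 had 309.4, 288 and 313 CPM in vitrified–warmed libraries, against 308.5, 323 and 328 CPM in fresh libraries. Its log2 fold change was -0.07 ± 0.04 (SE, edgeR adjusted p = 0.127). ND4L had 32.2, 25.9 and 30.7 CPM in vitrified–warmed libraries, against 32.1, 34.5 and 34.6 CPM in fresh libraries, where the lowest library was vitrified–warmed replicate 2. Its log2 fold change was -0.18 ± 0.09 (SE, edgeR adjusted p = 0.0790), and without vitrified–warmed replicate 1 it was -0.24 (adjusted p = 0.0497). With the exon length correction ND4L (-0.61, adjusted p = 1.08e-05) and ND6 (-0.33, adjusted p = 1.03e-06) were called lower in edgeR, and on log2(FPKM + 0.5) limma gave -0.36 and -0.25.

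**Figure D4:**
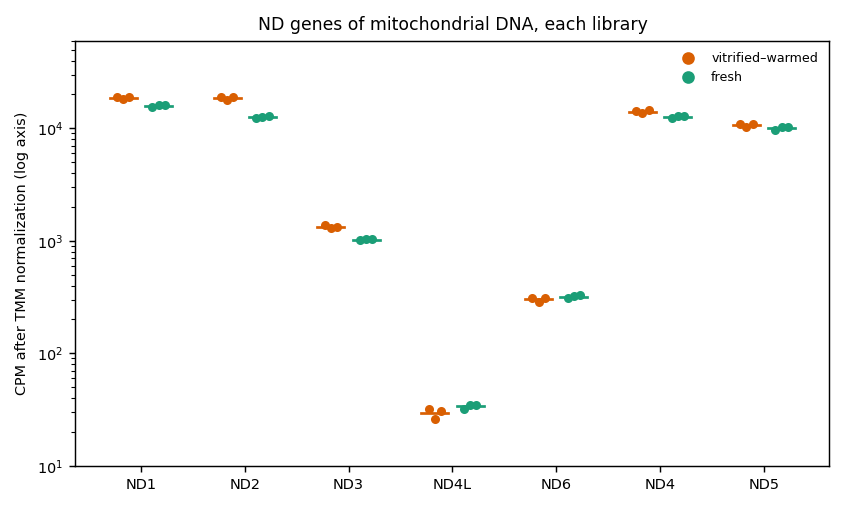
CPM after TMM normalization (log axis) of the 7 ND genes in each library, with vitrified–warmed libraries (orange) left of fresh libraries (green) and a line at each group mean. ND1, ND2, ND3, ND4 and ND5 lay higher in all 3 vitrified–warmed libraries, ND4L and ND6 overlapped, and ND4L stood at 29.6 against 33.7 CPM in the means. On FPKM values the means of ND4 and ND5 lay lower in the vitrified–warmed group, while their libraries overlapped.

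ND4L and ND4 are made as 1 transcript with overlapping reading frames, and the bases at their junction are shown because fragments there belong to both genes. The bases shared by both genes, 7 in number, are in capitals, on the plus strand of GRCm38 mitochondrial DNA from GENCODE M21, at 10137 to 10173 for ND4L and at 10167 to 10203 for ND4.
ND4L: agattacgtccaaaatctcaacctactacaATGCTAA
ND4: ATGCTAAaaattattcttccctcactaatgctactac
Fragments counted for ND4 exceeded those for ND4L 441, 527 and 469 times in vitrified–warmed libraries and 385, 371 and 372 times in fresh libraries, although both lie on that transcript. Per length ND4 had 5714 ± 236 FPKM against 5791 ± 72.4 FPKM and ND4L 55.7 ± 6.82 FPKM against 71.5 ± 2.32 FPKM (SD, n = 3 each). A nuclear pseudogene, Gm10222, matches 294 of the 297 bases of ND4L at 100% identity and is not among the genes of the table. ND4 too has a copy, at 100% identity over 876 of its 1378 bases, and ND3 has one at 99.7% over 345 of 348 bases. The counts of these genes are uncertain to that extent, and the part of the copies in the gap between ND4 and ND4L was not tested. How fragments that match several places were counted is not given in the sources used here.

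Per length, ND1 was the highest of the ND genes at 10886 ± 332 FPKM in vitrified–warmed and 10376 ± 137 FPKM in fresh blastocysts, and ND2 followed at 9986 ± 423 and 7613 ± 101 FPKM. ND4, ND5, ND3, ND6 and ND4L came next in that order in both groups. ND5 had 3284 ± 147 against 3461 ± 72.9 FPKM, ND3 had 2133 ± 88.6 against 1855 ± 11.5 FPKM and ND6 had 327 ± 18.4 against 387 ± 8.68 FPKM (SD, n = 3 each). The light-strand transcript ND6 thus stood at 9.94% of ND5, its neighbour on the heavy strand, in vitrified–warmed and at 11.2% in fresh blastocysts. Summed over the nuclear genes the level was 1172 ± 45.5 against 1147 ± 28.6 FPKM, and over the ND genes 32386 ± 1239 against 29555 ± 381 FPKM (SD, n = 3 each).

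Several subunit genes have near-identical copies that could take or give fragments. In GENCODE M21 a copy of at least 95% identity over at least 150 bases was found for ND2, ND3, ND4, ND4L, ND5, Ndufa12, Ndufab1, Ndufb11, Ndufb3, Ndufb4, Ndufs3, Ndufs5 and Ndufs6. Only BC002163, a copy of Ndufs5, is listed in the table. The values of these genes are uncertain to that extent. In GENCODE M21 exons of Ndufb5 (616 bases) and Ndufb6 (257 bases), among others, also overlap exons of a gene on the opposite strand. Exons of Ndufb2, Ndufb8 and Ndufb9 overlap those of a gene on the same strand. The part of these overlaps was not tested.

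Nuclear respiratory genes are known targets of NRF1, of ETS-family factors and of YY1, and the promoters of the nuclear subunit genes were searched for their motifs from 250 bases before to 50 bases after the start. RefSeq promoters (GRCm38.p6) were matched for 33 of the 36 genes, and both strands were read. The NRF1 motif (GCGCA, any base, then GCGC) was found for 7 of the 33 genes, 21.2%, and for 5.19% of 27025 genes with a promoter. They were Ndufa5, Ndufa6, Ndufa11, Ndufb4 and Ndufs6, which were higher, and Ndufa8 and Ndufs5, which did not pass the test. The ETS motif CCGGAAG was found for 4 genes, 12.1%, beside 9.93% of all, and the YY1 motif (AAGATGG followed by CGGC) for 4 genes, 12.1%, beside 0.755% of all. ETS matches stood at Ndufb6, Ndufb7, Ndufs8 and Ndufs3, and YY1 matches at Ndufs4, Ndufs6, Ndufs7 and Ndufa9, so Ndufs6 alone held more than 1 kind. By call, NRF1 matches stood at 5 of 19 genes that were higher, 0 of 5 that were lower and 2 of 9 that did not pass the test. Whether the motif goes with the change was not tested. A match describes the letters and not binding.

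The bases just before the start of 4 of the genes with NRF1 matches that were higher are shown, with each match in capitals, Ndufb4 over 200 bases because it held 3 matches and the others over 100 bases. They are from RefSeq, GRCm38.p6, at chr16:37654369-37654568 (minus strand) for Ndufb4, chr6:24527691-24527790 (minus strand) for Ndufa5, chr17:56717662-56717761 (plus strand) for Ndufa11 and chr13:73328483-73328582 (minus strand) for Ndufs6.
Ndufb4: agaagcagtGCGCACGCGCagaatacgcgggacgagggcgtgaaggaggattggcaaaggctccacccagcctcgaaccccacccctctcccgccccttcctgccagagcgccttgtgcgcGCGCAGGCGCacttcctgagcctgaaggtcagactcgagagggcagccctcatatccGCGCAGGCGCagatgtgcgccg
Ndufa5: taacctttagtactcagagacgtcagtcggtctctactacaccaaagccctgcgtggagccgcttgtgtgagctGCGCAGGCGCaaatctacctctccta
Ndufa11: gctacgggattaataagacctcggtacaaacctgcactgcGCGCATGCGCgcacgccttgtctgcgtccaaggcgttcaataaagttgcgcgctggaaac
Ndufs6: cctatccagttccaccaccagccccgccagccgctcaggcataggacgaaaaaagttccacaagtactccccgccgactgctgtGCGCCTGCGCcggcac
Their log2 fold changes were 0.56, 0.90, 0.62 and 0.38 in this order.

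Genes that work with complex I were counted in the same way, where 31.6% of all genes tested were higher and 32.8% lower. Of 20 assembly factors, which put the modules together and do not stay in the enzyme, 17 were tested. Of these 5 were higher (29.4%) and 6 lower (35.3%), near the shares of all genes, with a median log2 fold change of -0.07. Ndufaf5, known from human cells to hydroxylate the subunit Ndufs7, had 8.48 ± 0.87 CPM in vitrified–warmed and 4.91 ± 0.57 CPM in fresh libraries (SD, n = 3 each) and a fitted difference of 0.79 on the log2 scale, and Foxred1 had 0.64. Ndufaf4 had 11.9 ± 1.32 against 25.9 ± 0.73 CPM (SD, n = 3 each) and -1.12 on that scale, and Ecsit had -0.69. Of 11 genes tested that feed ubiquinone by other routes 3 were higher (27.3%) and 5 lower (45.5%), with a median of -0.14. There Chdh, choline dehydrogenase, had 0.76 and Sdhd, a membrane anchor of complex II, 0.23. Prodh, proline dehydrogenase, had -0.79 with only 17 to 44 fragments per library. Etfdh, which takes electrons from fatty acid oxidation, had -0.72 with 196 to 383 fragments. A list of 19 genes held those that supply NADH or carry it into mitochondria, and also Nnt, which uses NADH. Of these 4, with Nnt among them, were higher (21.1%) and 7 lower (36.8%), with a median of -0.08. Nnt, the transhydrogenase that makes NADPH from NADH, had 0.88 and Mdh1 0.64, but Nnt, to which the table gives 73612 exon bases, had -0.25 with the exon length correction and was then called lower (adjusted p = 0.0226 in edgeR). Of the same list, the tricarboxylic acid cycle genes Dlst and Idh3b had -0.70 and -0.53.

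The other proteins encoded by mitochondrial DNA, 6 in number, belong to complexes III, IV and V. Of these 4 were higher and none lower, with a median log2 fold change of 0.18, near that of the ND genes. Over all genes tested 31.6% were higher and 32.8% lower. With the correction for exon length 2 were higher and 3 lower. ATP6 had the largest difference, 1.12, and ATP8 had 0.39, both subunits of ATP synthase, and with the correction they had 0.92 and -0.14. The mitochondrial ribosomal RNA Rnr1 had a log2 fold change of 0.36 (adjusted p = 2.02e-06 from edgeR) and Rnr2 -0.003 (adjusted p = 0.932), so the fragments of Rnr2 per ND fragment were 1.33 ± 0.06 in vitrified–warmed and 1.62 ± 0.02 in fresh libraries (SD, n = 3 each).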

How the data were processed

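RNA-Seq libraries (Ovation SoLo kit, paired-end) of 3 vitrified–warmed and 3 fresh aliquots were used. The authors trimmed and aligned reads to GRCm38 in CLC Genomics Workbench (version 10) and deposited whole-number exon fragment counts per gene, with 28887 entries, of which 8 name no gene and hold 0% of fragments. The authors also deposited FPKM, in which each count is divided by exon length and by a total per library. Their fold changes, p-values and group means were not used. The annotation release is not given in the sources used here. The columns were matched to the sample titles by group word and replicate number.

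Counts were filtered with filterByExpr, normalized by TMM and tested with edgeR 4.0.16 (robust quasi-likelihood) in R 4.3.3, with Benjamini–Hochberg adjustment over 12774 genes. CPM serve differences and FPKM serve levels between genes. Depth was 9093411 to 11843562 exon fragments, and nuclear subunit genes had 45 to 1204 fragments per library. Alternatives were DESeq2 1.42.0, scaling to 12 housekeeping genes or without mitochondrial and ribosomal RNA genes, other filters, limma 3.58.1 on log2(FPKM + 0.5) and log2(FPKM + 0.1), a replicate block, an exon length correction (lowess, span 0.3), the study's thresholds set on edgeR's values (mean above 0.5 FPKM, p under 0.05, 1.5-fold) and each library left out. Values in every library are given for ND genes, nuclear core genes, nuclear genes past the test with a 1.5-fold change, and the largest rise and fall of each module. Of other lists, up to 2 largest rises and falls are named. Rbm10, Tssk6, Ino80dos, Gm10222, BC002163 and both ribosomal RNAs were named after their values were seen. The members and lists were chosen with earlier results of these data known.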

Additional observations from a re-analysis of the deposited data

How the results depend on the processing

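Over the 43 genes and 15 alternatives, 550 of 645 comparisons kept direction and side of the threshold, 40 lost the call, 21 gained one and 34 changed direction, and 20 genes kept both throughout. On log2(FPKM + 0.5) and log2(FPKM + 0.1) limma called 2647 and 2736 genes higher among all genes, 8 nuclear subunit genes lower under both, 2 ND genes higher and 2 lower under both, and all genes had a median of -0.13 and -0.16. Medians were then 0.10 under both for the nuclear genes, -0.020 under both for the ND genes, 0.12 and 0.13 for the N module, 0.32 and 0.33 for the Q module, -0.026 under both for the nuclear proximal arm and 0.16 under both for the nuclear distal arm. Ndufa10 had -0.15, Ndufc1 -0.16, ND4 -0.020, ND5 -0.077 and Ndufs5 -0.026 under both pseudocounts, and Ndufs3 -0.13 and -0.14, Ndufa3 -0.0390 and -0.0392, Ndufa8 -0.031 and -0.032, Ndufb3 -0.0427 and -0.0433 and Ndufb8 -0.036 and -0.037. The share of exon fragments in the total behind FPKM differed between the groups, and its part was not tested.

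With the correction for exon length 8 nuclear genes and 2 ND genes were lower, and the medians were 0.22 (nuclear), 0.23 (N), 0.41 (Q), -0.023 (nuclear proximal arm) and 0.21 (nuclear distal arm), with Ndufa3 at -0.24, Ndufc1 at -0.31, Ndufb7 at -0.076, Ndufs3 at -0.084, Ndufa8 at -0.036, Ndufa10 at -0.023, Ndufs5 at -0.12, Ndufb3 at -0.12 and Ndufs1 at 0.00043. At the study's thresholds 1172 genes were higher and 1477 lower among all genes, 8 nuclear genes were higher and 2 lower, and no ND gene reached 1.5-fold. With only genes above 1 FPKM, 2789 genes were lower, since fewer genes were tested.

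Leaving out 1 library gave 3741 to 4403 genes higher and 3845 to 4343 lower among all genes, 17 to 23 nuclear genes higher and 4 to 5 lower, and 4 to 5 ND genes higher and 0 to 1 lower. The medians ran from 0.24 to 0.30 (nuclear), 0.13 to 0.18 (ND), 0.24 to 0.36 (N), 0.44 to 0.56 (Q), 0.14 to 0.19 (nuclear proximal arm) and 0.29 to 0.42 (nuclear distal arm), and Ndufc1 ran from -0.034 to 0.061 and Ndufb2 from -0.24 to 0.0050. Same-numbered libraries deviated with correlations of -0.042, 0.0035 and -0.017 over 8939 genes, so no deviation shared by number was seen. These values do not tell whether same-numbered aliquots were handled together. With the replicate block 3890 genes were higher and 4073 lower, with 21 nuclear genes higher and 4 lower, and the call of Ndufb10 was lost (adjusted p = 0.0554 from edgeR), the only member it changed. Ndufb10 was also not called with DESeq2 (0.0981), with no filter on low counts (0.0595), with the 2 other scalings (0.0777 and 0.0732) or above 1 FPKM (0.0948), and its fall was larger with the exon length correction (-0.39) and in limma (-0.35 under both pseudocounts).

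Depth limits Ndufa13 and Ndufa1 most, with as few as 45 and 66 fragments in a library, and 1 pool per group limits every comparison.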

Other observations

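Among the genes of mitochondrial DNA, ATP6 and ATP8 lie on 1 transcript, as ND4L and ND4 do, yet their counts differed widely. ATP6 had 15.6 ± 1.91 CPM in vitrified–warmed and 7.17 ± 0.48 CPM in fresh libraries, and ATP8 had 4638 ± 185 and 3536 ± 21.3 CPM (SD, n = 3 each). ATP8 exceeded ATP6 in fragments 301 ± 40.6 times in vitrified–warmed and 495 ± 32.4 times in fresh libraries (SD, n = 3 each). Whether shared or near-identical sequence sets these counts was not tested.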
